A study of Saccharomyces cerevisiae S288C with 6 samples.

Results

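Transcript levels of yeast open reading frames (ORFs) that carry only a systematic name were examined in cultures given PFA (plakortide F acid), a sponge-derived endoperoxide with antifungal activity. An ORF was included when RefSeq, matched by way of the array annotation, gave it no standard gene name. Its mean log2 signal over the 6 arrays also had to lie above that of a signal of 20. In addition, its mean log2 signal had to differ by at least 1, a 2-fold change, between PFA and DMSO cultures. These criteria took 68 ORFs, 44 higher and 24 lower in PFA, out of 450 unnamed ORFs above the signal limit and 5356 genes of any name above it. Probe sets annotated to a single gene covered 499 unnamed ORFs among 5449 genes, and the other 49 were too dim. The same signals chose the ORFs, so their differences are given here as a description and not as tests.

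PFA cultures were Saccharomyces cerevisiae S288C, the reference laboratory strain and a haploid of the alpha mating type, grown in buffered synthetic glucose medium and exposed to PFA at its IC50 of 0.62 ug/ml. DMSO cultures were the same strain with 0.25% DMSO, the solvent. Both were treated at an optical density of 0.2 and collected at 0.5, with 3 biological replicates per group and 1 Affymetrix Yeast Genome 2.0 array each. The sources used here do not give the length of the cultures or the DMSO content of the PFA cultures, and the part of solvent and growth time was not tested. Each value is a signal intensity that the authors had scaled to a common level for each array, and the number of arrays limits the precision. Signals of different probe sets are not set against each other as levels.

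A systematic name gives the position of a yeast ORF: the second letter stands for the chromosome, L or R for the arm, the number for the order from the centromere, and W or C for the strand. A letter after a hyphen marks an ORF, often a short one, that was added between those first numbered. ORFs keep such a name when no study has yet proposed a standard one, and they include enzymes known only from sequence similarity, paralogues of studied genes left by the ancient duplication of the yeast genome, genes that a stop codon or frameshift split in S288C, and the ORFs of Ty retrotransposons.

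A difference of at least 2-fold in either direction was found for 15.1% of the 450 unnamed ORFs, for 8.91% of the 4906 genes with a standard name and for 9.43% of all genes above the limit. Higher signals in PFA of at least 2-fold made up 9.78% of the unnamed ORFs, 5.56% of the named genes and 5.92% of all genes. Lower ones made up 5.33%, 3.34% and 3.51%. The unnamed ORFs were dim, with a median at percentile 25.8 of the mean signal of all genes. The part of signal level in these shares was not tested. The PFA and DMSO arrays did not overlap for 65 of the 68 ORFs, against 66.6% of all genes, and limma, a linear model fitted over all genes, gave 66 of them an adjusted p under 0.05, against 62.0% of all genes. Over all unnamed ORFs those shares were 60.2% without overlap and 58.2% past the limma threshold, and over genes with a standard name 67.1% and 62.4%. Since the 2-fold criterion chose the ORFs on this contrast, nothing is read from those counts. Of the 450 unnamed ORFs, 9 were past 4-fold higher and 3 past 4-fold lower. Of all 5356 genes, 82 (1.53%) and 32 (0.597%) reached that size. Of the 3 lower ones, YCR102C was below 20 on 2 PFA arrays, and 2 stayed past 4-fold with such arrays set to 20. Most lay near the limit: 43 of the 68 had log2 differences between 1 and 1.5 in size.

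**Figure D1:**
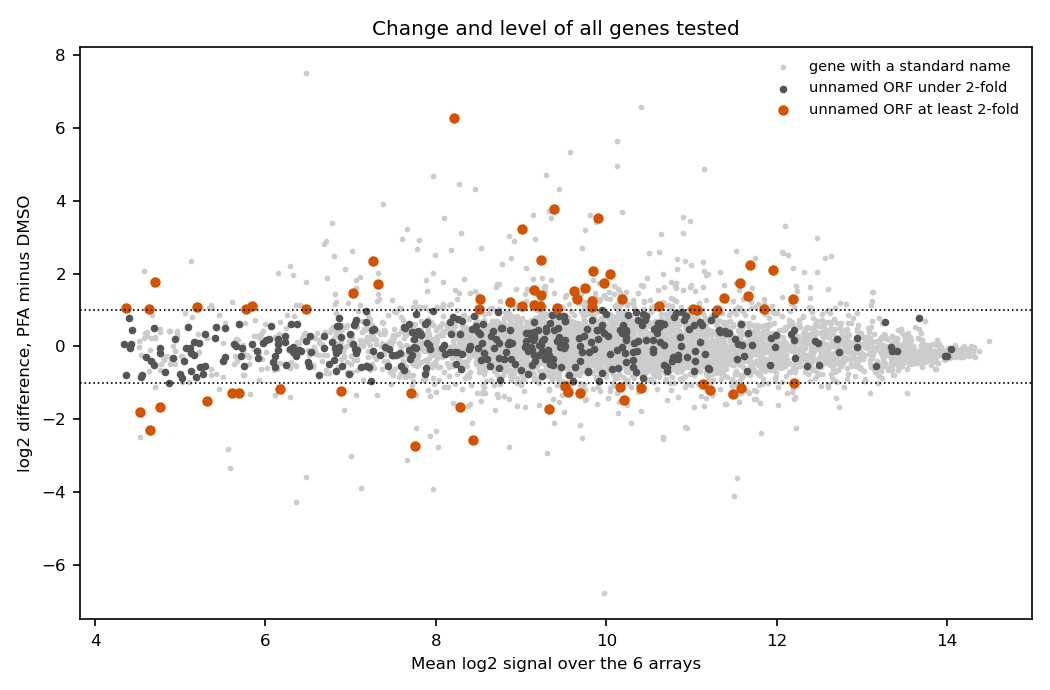
Log2 difference of PFA minus DMSO (vertical axis) against mean log2 signal over the 6 arrays (horizontal axis) for all 5356 genes above the signal limit, 1 point per gene, with dotted lines at 2-fold. The 68 changed unnamed ORFs (orange) are spread above and below the lines, and a single ORF reaches a log2 difference of 6.26.

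Probe sets whose name marks sequence shared with other transcripts stood for 6 of the 68 (8.82%), against 8.22% of all unnamed ORFs and 2.11% of all genes, and their values can mix near-identical copies. In gene order, 7 of the 68 (10.3%) lay among the last 10 genes at a chromosome end, against 13.3% of the unnamed ORFs and 4.03% of all genes. Each of the 68 had a single annotated probe set.

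The arrays themselves were alike within groups. Log2 signals correlated at 0.991 to 0.994 for arrays of the same group and at 0.923 to 0.929 across groups, and after trimming 2% of probe sets at either end every array averaged 999. Of the 4 markers of the labelled alpha mating type, MF(ALPHA)1, an alpha-factor gene, had mean signals of 13023 in PFA and 17847 in DMSO. The other alpha-factor gene, MF(ALPHA)2, had 97 in PFA and 10528 in DMSO. The agglutinin gene SAG1 had 701 in PFA and 12079 in DMSO and the receptor gene STE3 2377 in PFA and 7207 in DMSO, so all 4 were lower in PFA. The 6 a-cell markers MFA1, MFA2, STE2, BAR1, AGA2 and STE6 had mean signals of 16.1 to 148 in PFA and 76.4 to 597 in DMSO, and 4 of them were lower and 1 was higher in PFA at the limma threshold. The part of these mating genes in the changes of unnamed ORFs was not tested.

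The largest rise was that of YNR064C, which encodes a predicted epoxide hydrolase of the alpha/beta hydrolase family, enzymes that open reactive epoxide rings. YNR064C had signals of 2549, 2620.1 and 2592 in PFA cultures, against 38.5, 39.2 and 25.7 in DMSO cultures. All 3 PFA arrays stood far above the DMSO arrays, the lowest of which was still above the limit of 20, and the difference was 76.4-fold. The log2 difference of YNR064C was 6.26, and with a pseudocount added to each signal it was 5.70 at 16 and 4.75 at 64. Of all 5356 genes, YNR064C ranked 3rd by rise.

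YOR338W, a paralogue of FUN19 with no described function, came next at 13.6-fold, with 2521, 2415 and 2438 in PFA cultures, against 156, 226 and 167 in DMSO cultures. It ranked 14th among all genes. No DMSO array came near the PFA arrays.

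YMR084W and YMR085W lie next to each other on the same strand and are the parts of a gene that a frameshift split in S288C. Their joint sequence resembles GFA1, which encodes glutamine-fructose-6-phosphate amidotransferase, the first enzyme of the pathway to chitin. Both were higher in PFA by a like amount. YMR085W had 2744, 3635 and 3381 in PFA cultures, against 301, 279 and 271 in DMSO cultures, and was 11.4-fold higher. YMR084W had 1434, 1609 and 1708 in PFA cultures, against 149, 192 and 168 in DMSO cultures, and was 9.36-fold higher. They ranked 22nd and 28th by rise among all genes.

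**Figure D2:**
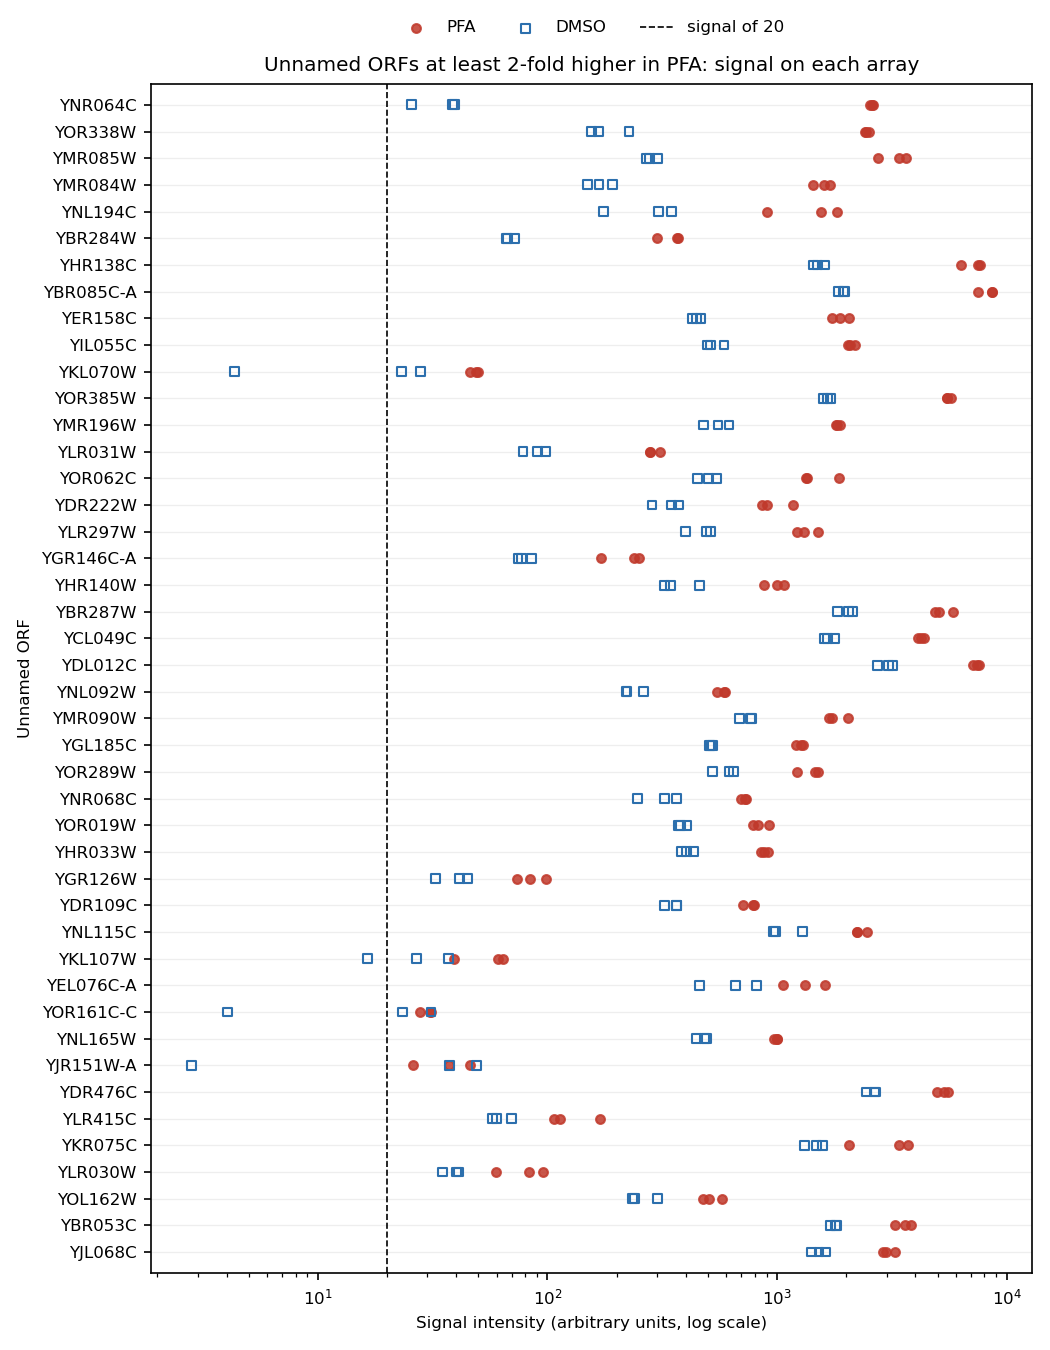
Signal intensity on a log axis for the 44 unnamed ORFs at least 2-fold higher in PFA, 1 row per ORF ordered by the size of the rise, with the 3 PFA arrays as filled red circles, the 3 DMSO arrays as open blue squares and a dashed line at the limit of 20. The groups separate in all rows other than YOR161C-C and YJR151W-A, where DMSO arrays reach into the range of the PFA arrays.

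Each ORF was given at most 1 role here, after its values were seen, and such roles were not counted over all genes. YOL162W, which resembles a permease, was filed as part of a split gene. By this filing, 4 of the 44 higher ORFs were membrane proteins. YNL194C, an integral protein of the eisosome region of the plasma membrane and a member of the Sur7 family, had 905, 1817 and 1559.9 in PFA cultures, against 347, 176 and 305 in DMSO cultures, a difference of 5.17-fold. Its lowest PFA array, replicate 1, was still above all DMSO arrays. YDL012C, a small tail-anchored plasma membrane protein with a cysteine-rich module called CYSTM, was 2.47-fold higher, with 7377 ± 231 in PFA and 2991 ± 237 in DMSO (SD, n = 3 each). YBR287W, a predicted membrane protein, was 2.62-fold higher and YHR140W, another one, 2.64-fold higher.

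With YMR084W and YMR085W counted as parts of a split gene, 7 of the 44 higher ORFs were filed as enzymes or enzyme-like. Besides YNR064C these were led by YBR284W, similar to AMP deaminase, with 300.4, 370.4 and 366 in PFA cultures, against 66.4, 71.9 and 66.8 in DMSO cultures. That was 5.03-fold, and the groups were well apart. The log2 difference of YBR284W was 2.33, and 1.62 with a pseudocount of 64. The other 5 differed less. YNL092W, a predicted methyltransferase, was 2.46-fold higher, and YGL185C, a predicted dehydrogenase of hydroxy acids, 2.45-fold higher. YHR033W, similar to glutamate kinase, was 2.17-fold higher and YDR109C, similar to sugar kinases, 2.16-fold higher. YJL068C, the esterase that hydrolyses S-formylglutathione in the breakdown of formaldehyde, was the smallest rise of the set at 2.01-fold, with 3042 ± 191 in PFA and 1516 ± 106 in DMSO (SD, n = 3 each).

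YHR138C, a small protein similar to Pbi2, the cytosolic inhibitor of vacuolar proteinase B, had 7491, 7618 and 6299 in PFA cultures, against 1613, 1443 and 1503 in DMSO cultures. It was 4.68-fold higher. YER158C, a paralogue of AFR1, was 4.23-fold higher, with 1730.3, 1877 and 2054 in PFA cultures, against 464, 429 and 444 in DMSO cultures. YOR062C and YKR075C are paralogues of each other and resemble Reg1, the phosphatase subunit that acts in glucose repression. YOR062C was 3.02-fold higher, with 1520.3 ± 303 in PFA and 498 ± 46.5 in DMSO (SD, n = 3 each), and YKR075C 2.03-fold higher, with signals of 2057, 3713 and 3396 in PFA cultures, against 1579, 1322 and 1488 in DMSO cultures. PFA replicate 1 was the lowest of the PFA arrays for YKR075C, as it was for YNL194C. For YOR062C the PFA arrays had 1334.5, 1869.9 and 1356.3, so replicates 1 and 3 were alike. YDR222W was 2.91-fold and YOR019W, a paralogue of JIP4, 2.19-fold higher.

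The other 22 higher ORFs, for which no role is given here, had log2 differences of 1.01 to 2.10 with a median of 1.18. The largest of these was in YBR085C-A, a short ORF between numbered genes, with 8622, 8633 and 7489 in PFA cultures, against 1851, 1950.5 and 1968 in DMSO cultures. YIL055C was 3.95-fold higher, with 2073, 2046 and 2187 in PFA cultures, against 587, 514 and 498 in DMSO cultures. YOR385W was 3.37-fold higher, with 5583 ± 133 in PFA and 1656 ± 57 in DMSO (SD, n = 3 each), and YMR196W 3.36-fold higher, with 1835 ± 34.1 in PFA and 549 ± 70.6 in DMSO (SD, n = 3 each). In each of these ORFs the lowest PFA array was above the highest DMSO array. YLR031W, at 3.26-fold, and YLR030W, at 2.02-fold, lie side by side on the same strand. YLR031W had 279, 279 and 309.7 in PFA cultures, against 90.3, 97.8 and 78.2 in DMSO cultures, and YLR030W had 95.2, 82.9 and 59.8 in PFA cultures, against 34.8, 40.9 and 40.2 in DMSO cultures. YLR297W was 2.87-fold higher, YGR146C-A 2.75-fold higher and YCL049C 2.51-fold higher. YMR090W, YOR289W, YGR126W, YNL115C, YEL076C-A, YNL165W, YDR476C, YLR415C and YBR053C lay between 2.45-fold and 2.01-fold. YEL076C-A, the second gene from its chromosome end, had a shared probe set.

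YKL070W, YKL107W, YOR161C-C and YJR151W-A were close to background in DMSO, each with 1 of 3 DMSO arrays below 20. YKL070W had 46.1, 49.8 and 48.7 in PFA cultures, against 4.31, 23.1 and 27.9 in DMSO cultures, so that its difference of 3.43-fold rested in large part on DMSO replicate 1. Without that array the log2 difference of YKL070W was 0.92, against 1.78 with it. YOR161C-C had 30.7, 27.7 and 31.2 in PFA cultures, against 4.03, 31.1 and 23.3 in DMSO cultures, with overlapping groups, and a log2 difference of 0.15 without DMSO replicate 1 and 1.62 without DMSO replicate 2, against 1.06 over all arrays. YJR151W-A also overlapped, with 46.2, 37.2 and 26 in PFA cultures, against 37.4, 49 and 2.81 in DMSO cultures. Its log2 difference was -0.27 without DMSO replicate 3 and up to 1.79 without 1 of the other DMSO arrays, against 1.04 over all arrays, so its direction turned on 1 array. YKL107W had 39.2, 60.9 and 64 in PFA cultures, against 26.8, 16.4 and 37 in DMSO cultures, a difference of 2.11-fold. Its highest DMSO array lay just under its lowest PFA array, and without DMSO replicate 2 its log2 difference was 0.76, against 1.08 with it.

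Among the 24 lower ORFs, YBL029W, for which no role is given here, fell furthest, with 79.6, 85.8 and 85.7 in PFA cultures, against 679, 434 and 585 in DMSO cultures. It was 6.65-fold lower, and the highest PFA array was far below the lowest DMSO array. The log2 difference of YBL029W was -2.73, and -2.07 with a pseudocount of 64. YJL218W, similar to bacterial acetyltransferases, was 5.96-fold lower, with 153, 163 and 114 in PFA cultures, against 973, 831 and 748 in DMSO cultures. These ranked 15th and 16th by fall among all genes.

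**Figure D3:**
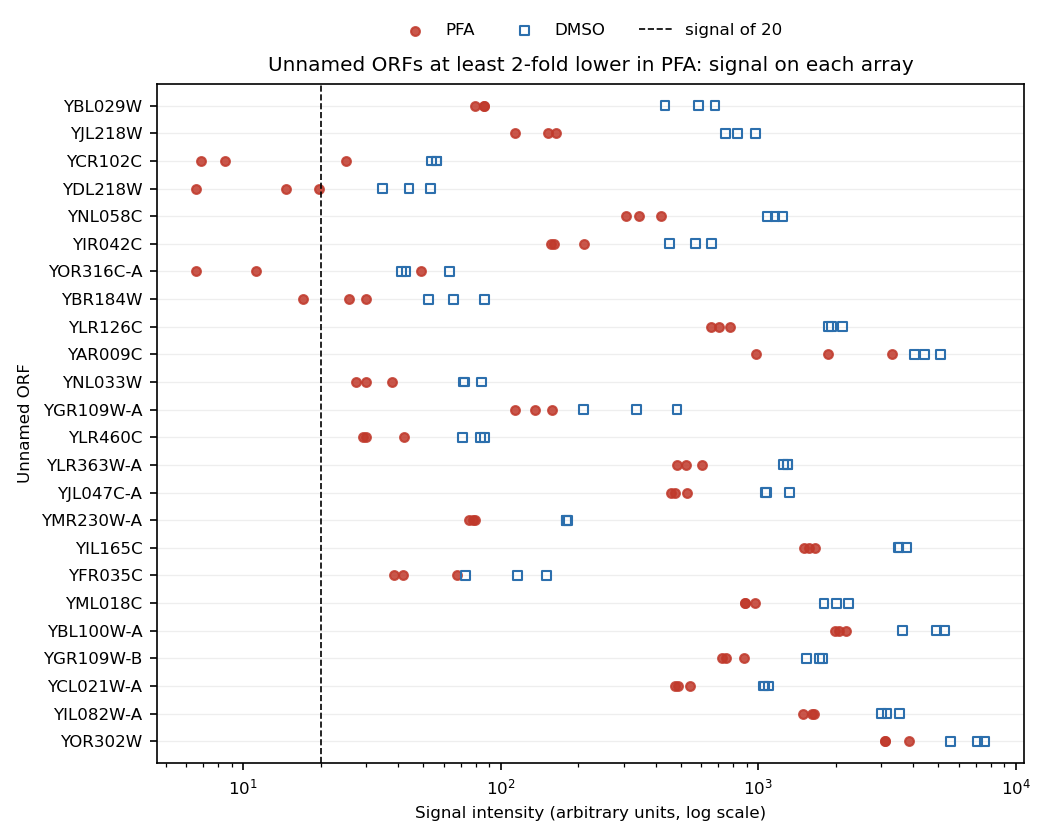
Signal intensity on a log axis for the 24 unnamed ORFs at least 2-fold lower in PFA, 1 row per ORF ordered by the size of the fall, with the 3 PFA arrays as filled red circles, the 3 DMSO arrays as open blue squares and a dashed line at the limit of 20. YOR316C-A is the single row whose groups overlap, and YDL218W has all 3 PFA arrays below the limit.

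YNL058C, a paralogue of the pheromone-regulated gene PRM5, was 3.28-fold lower, with 344, 306 and 418 in PFA cultures, against 1086, 1239 and 1159.7 in DMSO cultures. YIR042C, the second gene from its chromosome end, was 3.18-fold lower, with 156, 161 and 210.1 in PFA cultures, against 451, 570.4 and 659 in DMSO cultures. YLR126C, similar to glutamine amidotransferases, was 2.78-fold lower, with 701, 656 and 774 in PFA cultures, against 1872, 2119 and 1919 in DMSO cultures. In all 3 the groups were far apart. YML018C, a predicted vacuolar membrane protein similar to the transporter Thi74, was 2.19-fold lower, with 916 ± 50.4 in PFA and 2014 ± 218 in DMSO (SD, n = 3 each). Short ORFs with hyphenated names were also present: YLR363W-A was 2.4-fold, YJL047C-A 2.36-fold, YMR230W-A 2.33-fold and YCL021W-A 2.13-fold lower. YMR230W-A had the tightest arrays of these, 74.9, 79.4 and 77.8 in PFA and 179.9, 182 and 179 in DMSO. YFR035C was 2.26-fold lower, with 41.8, 67.6 and 38.6 in PFA cultures, against 115.7, 150.6 and 72.8 in DMSO cultures. YNL033W, read on a shared probe set, was 2.42-fold lower, with 29.9, 27.3 and 37.9 in PFA cultures, against 72.4, 84.3 and 71.6 in DMSO cultures. Both were dim and fell short of 2-fold with a pseudocount of 16.

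YCR102C and YLR460C, which resemble quinone oxidoreductases, both lie near chromosome ends. YCR102C had 6.88, 8.47 and 25.1 in PFA cultures, against 56.1, 53.9 and 56 in DMSO cultures, with 2 of 3 PFA arrays below 20. It was at least 2.57-fold lower when those arrays are set to 20, and its measured difference was 4.88-fold. YLR460C had 29.1, 42.2 and 30.0 in PFA cultures, against 83.5, 70.8 and 86.3 in DMSO cultures, and was 2.4-fold lower. YDL218W was below 20 on all 3 PFA arrays, with 34.6, 44 and 53.2 in DMSO, so it was at least 2.16-fold lower when each PFA array is set to 20. YBR184W had 25.7, 17.1 and 29.9 in PFA cultures, against 86.4, 65.6 and 52.5 in DMSO cultures, and was 2.83-fold lower with 1 PFA array below 20. YOR316C-A had 11.2, 6.57 and 48.8 in PFA cultures, against 42.8, 63 and 41.2 in DMSO cultures. Its groups overlapped, since PFA replicate 3 lay within the DMSO range while the other PFA arrays were below 20, and its measured difference was 3.14-fold. With those arrays set to 20 it was at least 1.78-fold lower, under the 2-fold limit. The log2 difference of YOR316C-A was -2.49 without PFA replicate 3 and -1.04 without PFA replicate 2, against -1.65 over all arrays.

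The set held 5 retrotransposon ORFs, each chosen for its 2-fold difference, and all 5 were lower in PFA. Other retrotransposon ORFs on the array were not counted, so nothing is read from this about the family. Ty elements copy themselves through RNA and encode a Gag protein, which forms the particle, and a Pol polyprotein with the reverse transcriptase. Transcription of Ty3 is known to rise with mating pheromone. YGR109W-A and YGR109W-B are the Gag and Gag-Pol ORFs of one Ty3 copy and YIL082W-A the Gag-Pol ORF of the other. YGR109W-B had 883, 720.3 and 748 in PFA cultures, against 1537, 1780.5 and 1728 in DMSO cultures, and was 2.15-fold lower. YGR109W-A was 2.41-fold lower, with 113, 135 and 158 in PFA cultures, against 209, 483 and 337 in DMSO cultures, and YIL082W-A was 2.04-fold lower, with 1582 ± 81.5 in PFA and 3229 ± 267 in DMSO (SD, n = 3 each). All 3 of these Ty3 ORFs had separate groups, with a wide spread between the DMSO arrays of YGR109W-A. The Ty2 Gag ORF YBL100W-A was 2.19-fold lower, with 2077 ± 101 in PFA and 4605 ± 875 in DMSO (SD, n = 3 each). The overlapping Gag-Pol ORF of the same element, YBL100W-B, which was under the 2-fold limit, had a log2 difference of -0.53. For Ty1, the Pol ORF YAR009C had 3313, 983 and 1867 in PFA cultures, against 4029, 4429.9 and 5088 in DMSO cultures. Its PFA arrays differed among themselves by over 3 times, and without PFA replicate 2 the log2 difference of YAR009C was -0.85, against -1.30 with it. The Gag ORF of the same element, YAR010C, had a log2 difference of -0.26. All of these apart from YGR109W-B had shared probe sets, so that the copies they stand for are uncertain.

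YOR302W is a leader ORF. It lies ahead of CPA1 on the same messenger RNA and encodes the arginine attenuator peptide, which stalls ribosomes when arginine is plentiful. CPA1 encodes a subunit of carbamoyl phosphate synthetase in arginine synthesis. YOR302W had 3093, 3104 and 3852 in PFA cultures, against 5586, 7107 and 7558 in DMSO cultures, a difference of 2.01-fold, the smallest fall of the set. CPA1 had 7191, 7057 and 7755 in PFA cultures, against 8323, 9875 and 10036 in DMSO cultures, with a log2 difference of -0.36 (limma adjusted p = 0.00108), so both signals were lower in PFA, and the difference between their changes was not tested.

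Other ORFs of the set are parts of genes that are whole in other strains. YIL165C and the adjacent NIT1 are the parts of a nitrilase gene, and both were lower. YIL165C had 1577, 1500.2 and 1666 in PFA cultures, against 3516, 3750.5 and 3506 in DMSO cultures, and NIT1 had 1528, 1288 and 1318 in PFA cultures, against 2587, 2671 and 2569 in DMSO cultures, with log2 differences of -1.18 and -0.92. YNR068C and BSC5 are the parts of a gene related to BUL1, which encodes a binding partner of the ubiquitin ligase Rsp5. Both were higher, with log2 differences of 1.22 and 1.14, and BSC5 had 226, 177 and 214 in PFA cultures, against 98.6, 108 and 75.4 in DMSO cultures. YOL162W and YOL163W together resemble the allantoate permease Dal5. YOL162W had a log2 difference of 1.01 and YOL163W one of 0.29 (limma adjusted p = 0.0268), below the 2-fold limit. In each pair the parts had differences of the same sign, as in YMR084W and YMR085W.

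Paralogues and homologues outside the set were then read for comparison, with values that did not enter the choice of the ORFs. They were picked from general knowledge with the ORFs in view, and the difference between the members of a pair was not tested. Several moved with their partner. FMP45, the paralogue of YNL194C and a component of the same membrane domains, had 419, 595 and 635 in PFA cultures, against 62.8, 71.4 and 76.2 in DMSO cultures, a log2 difference of 2.95 (limma adjusted p = 1.49e-08). PBI2 had 7719 ± 683 in PFA and 3670.0 ± 92.6 in DMSO (SD, n = 3 each), a log2 difference of 1.07 against 2.23 for YHR138C. FUN19 had 2207 ± 329.9 in PFA and 1057 ± 90.2 in DMSO (SD, n = 3 each), a log2 difference of 1.05 against 3.76 for YOR338W. JIP4 and YLR225C, the paralogues of YOR019W and YDR222W, had smaller positive differences of 0.49 and 0.58 on the log2 scale.

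**Figure D4:**
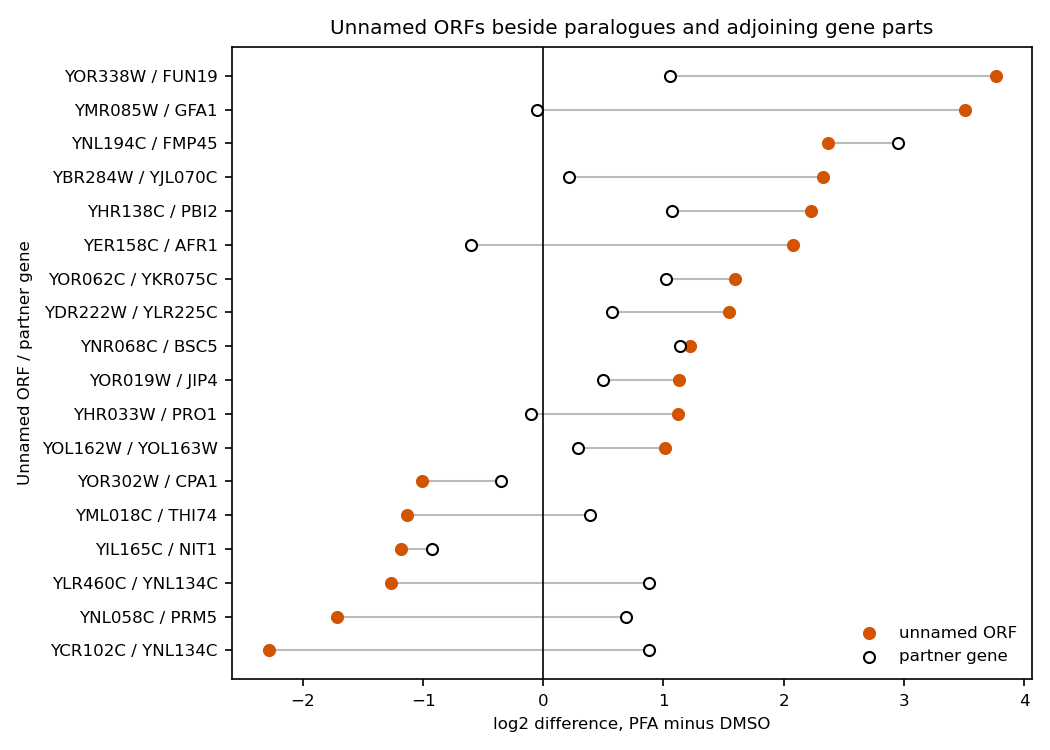
Log2 difference of PFA minus DMSO for unnamed ORFs (filled orange) and the paralogue, homologue, adjoining part or downstream gene of each (open black), 1 pair per row, joined by a grey line. Pairs such as YNL194C and FMP45 lie on the same side of 0, and AFR1, PRM5, THI74, YNL134C, GFA1 and PRO1 lie on the other side of 0 from the unnamed ORF, GFA1 and PRO1 close to 0.

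Others moved the opposite way or stayed near 0. GFA1, the whole gene that YMR084W and YMR085W resemble, had 3141, 2944 and 3127 in PFA cultures, against 3286, 3321 and 2949 in DMSO cultures, with overlapping groups and a log2 difference of -0.05 (limma adjusted p = 0.563). AFR1, which acts in the shaping of mating projections, was lower, with 519.8 ± 51.7 in PFA and 786 ± 53.5 in DMSO (SD, n = 3 each) and a log2 difference of -0.60, where YER158C was at 2.08. PRM5 was higher, with 2736 ± 38.4 in PFA and 1698 ± 88.4 in DMSO (SD, n = 3 each) and a log2 difference of 0.69, where YNL058C was at -1.72. THI74 had a log2 difference of 0.39 (limma adjusted p = 0.0121), where YML018C was at -1.13. PRO1, the glutamate kinase gene of proline synthesis, had a log2 difference of -0.10 (limma adjusted p = 0.326), where YHR033W was at 1.12. For YJL070C, the paralogue of YBR284W, the log2 difference was 0.21 (limma adjusted p = 0.118), where YBR284W was at 2.33. YNL019C and YBR016W, also looked up, were not matched to a probe set by name.

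Lists of families that include unnamed ORFs gave mixed directions. Besides YNL194C, which was chosen for its difference, the Sur7 family held 3 genes, of which 2 were higher and 1 was lower at the limma threshold. PUN1 had 14985 ± 1210.4 in PFA and 5294 ± 197 in DMSO (SD, n = 3 each), and SUR7, the founding member, was lower, with 1409.6 ± 129 in PFA and 3793 ± 414 in DMSO (SD, n = 3 each) and a log2 difference of -1.43. Of the 6 aldo-keto reductases, enzymes that reduce carbonyl compounds with NADPH, 5 were higher and 1 was lower at that threshold, with a median log2 difference of 0.73. The unnamed YJR096W had a log2 difference of 0.997, just below the 2-fold limit, and YDL124W one of 0.68. ARA1 was the member past 2-fold, at 1.04, and GCY1 the lower one, at -0.36. Besides YCR102C and YLR460C, which were chosen for their differences, there were 2 quinone oxidoreductase-like genes, 1 higher and 1 lower. YNL134C, the higher one, had 3359 ± 202 in PFA and 1829 ± 131 in DMSO (SD, n = 3 each), a log2 difference of 0.88, and YIM1, the lower one, had a log2 difference of -0.38. The median log2 difference of all genes was -0.02, and 30.3% of all genes were higher and 31.8% lower at the limma threshold. Of the 5 CYSTM proteins only YDL012C had a probe set under its name.

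Genes next to the 68 ORFs on the chromosome were read as well, from the gene order in RefSeq. Next to the 44 higher ORFs stood 74 other genes with values, of which 12 (16.2%) were at least 2-fold higher in PFA and 3 (4.05%) at least 2-fold lower. Next to the 24 lower ORFs stood 40, of which 4 (10.0%) were at least 2-fold lower and 3 (7.50%) at least 2-fold higher. All of these counts leave out neighbours that are themselves among the 68. Genes next to unnamed ORFs that did not reach 2-fold, again without the 68, numbered 605, with 5.79% higher and 2.64% lower. Over all genes, the 68 included, these shares were 5.92% and 3.51%, and over genes with a standard name 5.56% and 3.34%. No test was made of these shares. In divergent pairs, whose starts lie side by side, 4 of the 15 neighbours of higher ORFs were at least 2-fold higher. Of the 9 divergent neighbours of lower ORFs, 1 was at least 2-fold lower and 1 at least 2-fold higher. Divergent neighbours of unnamed ORFs that did not reach 2-fold, again without the 68, numbered 147, with 4.76% higher and 3.40% lower.

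**Figure D5:**
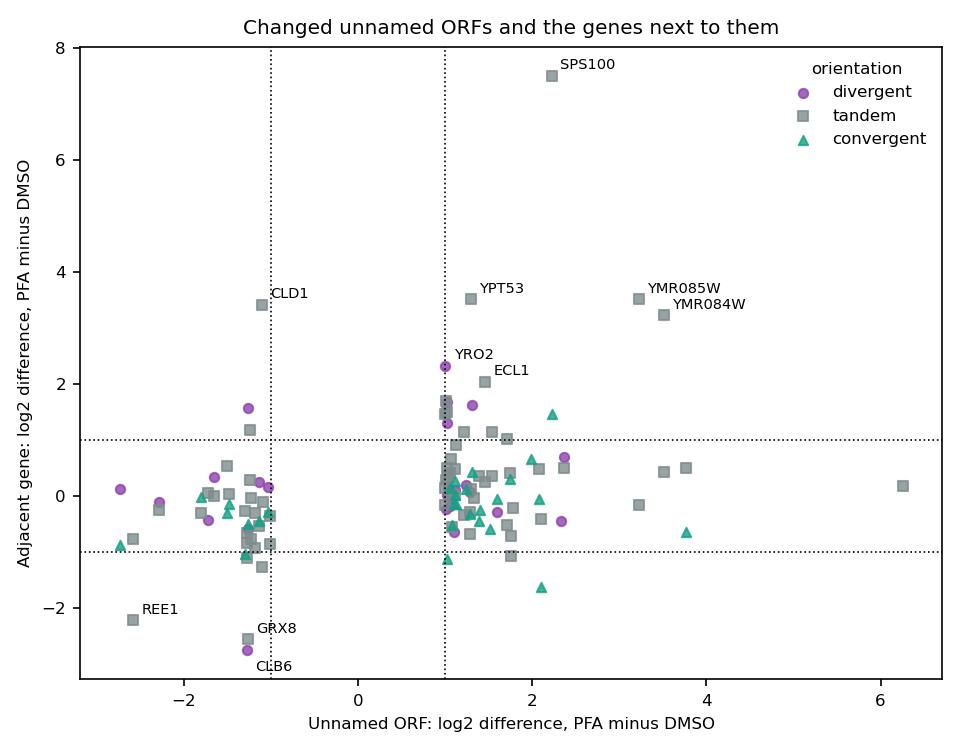
Log2 difference of PFA minus DMSO for each gene adjacent to a changed unnamed ORF (vertical axis) against that of the ORF itself (horizontal axis), 1 point per adjacent pair, with the marker giving the relative orientation and dotted lines at 2-fold. Adjacent genes past 4-fold are labelled, and most points lie between the horizontal lines.

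YHR138C lies next to SPS100, a spore wall gene, in the same orientation. SPS100 was below 20 on all 3 DMSO arrays and had 1323, 1208 and 1091 in PFA, at least 60.2-fold higher when each DMSO array is set to 20. ARO9, the gene on the other side of YHR138C and an aromatic aminotransferase gene, was 2.77-fold higher, with 1120.2 ± 139.9 in PFA and 404 ± 38.1 in DMSO (SD, n = 3 each). YPT53, a stress-induced Rab GTPase gene, stands beside YNL092W and was 11.4-fold higher, with 931, 994 and 853 in PFA cultures, against 66.4, 87.5 and 91.6 in DMSO cultures. YRO2, a plasma membrane protein gene of the Hsp30 family, shares its upstream region with YBR053C and was 5.03-fold higher, with 5061 ± 644 in PFA and 1007 ± 138 in DMSO (SD, n = 3 each). ECL1, a gene linked to chronological lifespan, stands beside YGR146C-A and was 4.12-fold higher, with 5253 ± 218 in PFA and 1273 ± 21.7 in DMSO (SD, n = 3 each). YLR415C lies between PUN1 and VPS36, both higher, at 2.83-fold and 3.22-fold. The divergent pair of YDL012C and the glutaredoxin gene GRX6 was higher on both sides, with GRX6 at 3.09-fold, as was that of YKR075C and the glutathione transferase gene ECM4, at 2.46-fold.

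Beside the lower ORFs, REE1, a cytoplasmic protein gene linked to the enolase gene ENO1, stands next to YJL218W and was 4.62-fold lower, with 1010.1, 937 and 774 in PFA cultures, against 4115, 3959 and 4429.5 in DMSO cultures. GRX8, a glutaredoxin gene, stands next to YLR363W-A and was 5.85-fold lower, with 727, 657 and 632 in PFA cultures, against 4349, 4002 and 3469 in DMSO cultures. CLB6, the B-type cyclin gene of S phase, is divergent from the Ty3 ORF YGR109W-A and was 6.74-fold lower, with 101 ± 8.48 in PFA and 687 ± 135 in DMSO (SD, n = 3 each). On the far side of the same Ty3 element the direction was the opposite: CLD1, the cardiolipin deacylase gene, was 10.7-fold higher, with 3093 ± 318 in PFA and 292 ± 56.6 in DMSO (SD, n = 3 each). YBR085C-A differed from its neighbours too, since the adjacent AAC3, an ADP/ATP carrier gene of low oxygen, was 3.09-fold lower, with 283 ± 15.3 in PFA and 875 ± 53.6 in DMSO (SD, n = 3 each). Beside other higher ORFs, AIM29, on the side of YKR075C away from ECM4, was 2.18-fold lower. FRE5, beside YOR385W, was 2.11-fold lower. Beside lower ORFs, PAU4, divergent from YLR460C and read on a shared probe set, was 2.96-fold higher. UBX6, beside YJL047C-A, was 2.26-fold higher. YNR065C, beside YNR064C, had a log2 difference of 0.18 (limma adjusted p = 0.222), and TEA1 and UBC11, on either side of YOR338W, had differences of 0.50 and -0.63.

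At the 2-fold limit itself, the smallest rises taken were YJL068C, YBR053C and YOL162W, with log2 differences of 1.005, 1.006 and 1.014. The unnamed ORFs just short of it were YJR096W at 0.997, YDL199C at 0.97 and YIL046W-A at 0.96. On the lower side YOR302W, YIL082W-A and YCL021W-A were the last taken, at -1.01, -1.03 and -1.09, and YBL044W, YMR030W-A and YLR152C the first left out, at -0.99, -0.95 and -0.95.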

How the data were processed

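The deposited intensity values, 1 per probe set on a linear scale, had been scaled by the authors to a common level on each array. GCOS 1.1 was used, per the submitters' processing notes; the sources used here do not give its summary or background steps. Of 10928 probe sets, 5498 matched an S. cerevisiae gene by way of RefSeq (assembly R64) and the platform's annotation, with 12 symbols updated. Probe sets annotated to more than 1 gene were left out. The brightest probe set stood for a gene, and log2 was taken without a pseudocount. Folds compare geometric means, while means ± SD use linear signals. The whole table was fitted with limma 3.58.1 in R 4.3.3 (two-sided, with a variance trend, adjusted by Benjamini-Hochberg across the 5356 genes, threshold 0.05), which was tested on simulated data. Groups and replicate numbers came from the sample titles. Each p-value weighs the difference between groups against the spread among these replicates, which limma moderates across genes.

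The ORFs and the lists were chosen with earlier results of these data known. The ORFs named were the 12 largest rises and 12 largest falls, members of listed families, those beside a neighbour past 4-fold in the same direction and the 3 on each side of the limit. All other ORFs and neighbours, and the roles, paralogues and retrotransposon ORFs, were named after their values were seen. RefSeq served only for names and gene order, since the files name no build. Sequence features of the ORFs were not analysed here. Alternatives were other scalings, filters, pseudocounts, probe set choices, symbols, medians, a replicate block, limma without a trend and leaving out each array. Python 3.11.15 with matplotlib 3.10.9 drew the figures.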

Additional observations from a re-analysis of the deposited data

How the results depend on the processing

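Of the 44 higher and 24 lower ORFs, centring each array on its median kept 35 and 24 and took in 4 more lower ones, quantile normalization kept 39 and 23, and probe sets specific to a gene kept 43 and 19. Leaving out 1 array kept 37 to 40 higher and 21 to 24 lower ORFs. With ORFs newly taken in, the totals were 38 to 43 and 22 to 28. With a pseudocount of 16 there were 34 higher and 20 lower ORFs. With a pseudocount of 64, which shrinks differences of dim ORFs by construction, there were 29 and 12. Over all genes the counts were 288 higher and 170 lower with 16, and 252 and 135 with 64, against 317 and 188. The fold of 6 of the 68 ORFs moved by over 1.5 times with the pseudocount of 16 and that of 14 with 64. A filter at the median signal of yeast probe sets, which leaves 2724 genes, gave 13 and 8, and over all genes 139 higher and 83 lower, against 317 and 188. No filter gave 51 and 36. Among neighbours of higher ORFs the share at least 2-fold higher was 26.7% for divergent pairs, against 16.2% for all. Among neighbours of lower ORFs the share at least 2-fold lower was 11.1% for divergent pairs, against 10.0% for all. YJR151W-A reversed with the median of replicates (log2 difference -0.0051) and without DMSO replicate 3 (-0.27; -0.27 to 1.79 over the arrays left out), and it is the ORF of the 68 whose direction changed under any of the 16 alternatives. The number of genes past the limma threshold was 3366 with a replicate block and 2965 to 3265 without 1 array, against 3323, and that of the 68 ORFs 66 with the block and 63 to 65 without 1 array. Same-numbered arrays share only a number: their deviations correlated at -0.05, -0.09 and 0.16, and 1 of 3 PFA arrays correlated best with its own. Dim signal limits YKL070W, YKL107W, YOR161C-C, YJR151W-A, YCR102C, YDL218W, YOR316C-A and YBR184W, which had at least 1 array below 20. Of the rest, the pseudocount of 16 removed YBR053C, YFR035C, YGR126W, YJL068C, YLR030W, YLR415C, YLR460C, YNL033W and YOL162W, none with an array below 20. The planned protein and promoter features were not run.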

Other observations

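The 49 unnamed ORFs under the signal limit held 7 with a log2 difference of at least 1 and 12 with one of at most -1, with nearly all values at or near background. YOR268C had the lowest, -2.76, with 4.85 ± 1.75 in PFA and 34.4 ± 18.99 in DMSO (SD, n = 3 each), and YIL060W the highest, 3.02, with 11.1 ± 8.63 in PFA and 1.05 ± 0.23 in DMSO. All PFA arrays of YOR268C and all DMSO arrays of YIL060W lay below 20.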
